A study of Mus musculus with 36 samples.

Results

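The cholesterol genes described here are 31 mouse genes of cholesterol synthesis, sterol sensing, export and transport, chosen by name from textbook roles, by a rule that uses no measured value, though with earlier results of these data known. All 31 were found among the 26709 genes of the expression table, and 30 passed the filter on low values, a mean of at least 10 normalised counts over the 18 RNA samples. Nr1h3, with a mean below that limit, was not tested. The list does not hold every enzyme of the pathway.

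Cortical neurons were taken from CD-1 mouse embryos at embryonic day 15 and cultured for 7 days in Neurobasal medium with B27 supplement, and the sources used here describe no sort for neurons. Before stimulation, activity was silenced in all groups, controls included, by AP-5 (100 µM, which blocks NMDA receptors) and TTX (1 µM, which blocks voltage-gated sodium channels) over 2 h. Stimulated neurons then received 10 ng/ml BDNF, a secreted neurotrophin that signals through the TrkB receptor, or 55 mM KCl, which depolarises the membrane, for 1, 6 or 10 h. The unstimulated controls remained in AP-5 and TTX, so that the drugs had been present for 3, 8 and 12 h at collection. For every stimulated group 2 h of the drugs are recorded. In comparisons with controls, stimulus and length of drug exposure therefore cannot be told apart. Each of the 9 groups of stimulus and time had 2 RNA-seq and 2 ATAC-seq samples, and the 6 controls of the 3 times were compared as 1 group, as the study did. KCl was added as a buffer that also diluted the culture medium, and the sources used here describe no control with that buffer, so depolarisation and dilution cannot be told apart. The study calls the samples of a group biological replicates, but which embryos or litters went into each is not given in the sources used here, and p-values measure the spread between these samples.

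Cholesterol is made from acetyl-CoA through a long series of enzymes: a precursor part that leads through mevalonate to isoprenoids, a middle part that joins isoprenoids into squalene and closes the rings of lanosterol, and a last part that turns lanosterol into cholesterol. Transcription of these enzymes is switched on by SREBP transcription factors, of which SREBP2 (gene Srebf2) mainly serves cholesterol genes and SREBP1 (Srebf1) mainly fatty acid genes. When sterols are plentiful, Insig proteins hold the escort protein SCAP and its SREBP cargo in the endoplasmic reticulum, and when sterols are scarce SREBP travels on and is cut to its active form. The liver X receptors (LXR; genes Nr1h2 and Nr1h3) work in the opposite sense: they are activated by oxysterols and raise the export pumps Abca1 and Abcg1 and the receptor-degrading ligase Mylip. In the brain, cholesterol does not arrive from the blood but is made locally, in the adult largely by glia and in developing neurons also by the neurons themselves.

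The regulatory letters near the start sites of these genes are shown because SREBP is known to bind sterol regulatory elements (SRE) beside NF-Y boxes. RefSeq promoter sequences of build GRCm38.p6 were at hand for 25 members; Abcg1, Fdft1, Fdps, Npc1, Sqle and Stard4 had no entry. The 250 bases upstream of each annotated start were searched on both strands for SRE (TCACNCCAC), E-box (CACGTG), NF-Y (CCAAT), AP-1 (TGANTCA), CRE (TGACGTCA) and EGR (GCGNGGGCG) letters. Hmgcs1 was the 1 member with the SRE letters. The other 3 windows hold an NF-Y or E-box match in members with large RNA changes and were picked after their values were seen. Each window has 30 bases, written on the strand of the gene with the match in capitals, and in these windows no match overlaps that of another motif.
Hmgcs1, SRE, chr13:119690203-119690232: acgtcaccgtcTCACCCCACttcccaggtc
Cyp51, NF-Y box, chr5:4104710-4104739: ccgctgtccgccaCCAATctggtcctgaga
Insig1, E-box, chr5:28071299-28071328: gctgggtgaggtCACGTGgctccggtggca
Sc5d, E-box, chr9:42264381-42264410: ctacgcggcgacCACGTGaccgccgcgacc

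The Hmgcs1 match starts 137 bases upstream of the transcription start (position -137), and the gene also holds 3 NF-Y matches at -237, -176 and -45. SRE letters were present in 4% of the 25 members and in 1.22% of the promoters of 27025 genes. NF-Y letters were present in 20 members (80%) against 37.5% of all genes, and E-box letters in 6 members (24%; Abca1, Dhcr7, Hsd17b7, Insig1, Sc5d and Scap) against 6.86%. For letters bound by activity-regulated factors, AP-1 was found in 8% of members (Dhcr7 and Msmo1) against 7.82% of genes, EGR in 8% (Dhcr7 and Insig1) against 5.33% and CRE in 0 members against 1.77%. Genes with several annotated starts have several windows, 3 each for Dhcr7, Insig2 and Srebf1. These shares describe letters and were not tested.

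RNA libraries held 8.51 to 36.7 M reads and ATAC libraries 1.24 to 6.24 M. The deepest RNA library was 1 control of 1 h, and the pair with KCl at 6 h differed most (chi-square per degree of freedom of 39.6, against 2.44 to 10.4 in the other RNA pairs). Normalised RNA values are reads divided by 1 size factor per sample. In the controls, the summed level of 5 neuron markers was 49485 to 54987 normalised counts, of 6 astrocyte markers 11752 to 16163, of 6 progenitor markers 15224 to 18253 and of 6 microglia markers 138 to 203, so the cultures held neuronal RNA together with RNA of glia and progenitors. Between control times 0 of the 30 members passed the test in either comparison with 1 h by limma, edgeR or DESeq2, and 0 had an unadjusted p below 0.05 (over all genes, limma gave 164 and 181).

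Per kilobase of exon, the members covered a wide range of levels in unstimulated neurons. The length joined the exons of all annotated transcripts of a gene, and the order and percentiles depend on it. Hmgcs1, the enzyme that condenses acetyl units into HMG-CoA, had the highest level of the list (2641 ± 148 normalised counts per kb, SD, n = 6), above 99% of the tested genes. Cyp51 (823.9 ± 36 per kb), Acat2 (821.2 ± 43.7), Srebf2 (696.3 ± 18.2), Insig1 (677.6 ± 22.5) and Sqle (648.2 ± 15.9) followed, the ranges of Cyp51 and Acat2 overlapping, as did those of Srebf2, Insig1 and Sqle from neighbour to neighbour. Abcg1 (31.01 ± 1.96), Mylip (26.19 ± 2.8) and Nr1h3 (3.347 ± 1.18) were lowest, and Nr1h2, the other LXR gene, stood at 163.4 ± 7.17 per kb. From Idi1 down to Lss, each neighbour in the order overlapped the next over the 6 controls.

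Both stimuli were followed by higher RNA of most of the list at every time. With BDNF, 21 members rose and 2 fell at 1 h, at 6 h and at 10 h alike, by counts that need not name the same genes. With KCl, 19 rose and 3 fell at 1 h, 23 rose and 5 fell at 6 h, and 26 rose and 3 fell at 10 h. Rose and fell mean an adjusted p below 0.1 in limma on log2(normalised count + 1), adjusted over all 16209 genes tested. Large parts of the whole transcriptome passed the same test, 40.4%, 43.3% and 40.6% of all genes with BDNF and 54.7%, 66.5% and 57.2% with KCl: in order of time, 21.3%, 22.1% and 21.1% of all genes rose with BDNF and 26.5%, 33.4% and 29% with KCl, while 19%, 21.1% and 19.5% fell with BDNF and 28.2%, 33.1% and 28.2% with KCl. The median log2 fold change of the 30 members was 0.51, 0.54 and 0.44 with BDNF and 0.42, 0.62 and 0.75 with KCl, beside medians of all genes between -0.01 and 0.01. The same 6 controls stand in all 6 comparisons, so the counts are not independent of each other.

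**Figure D1:**
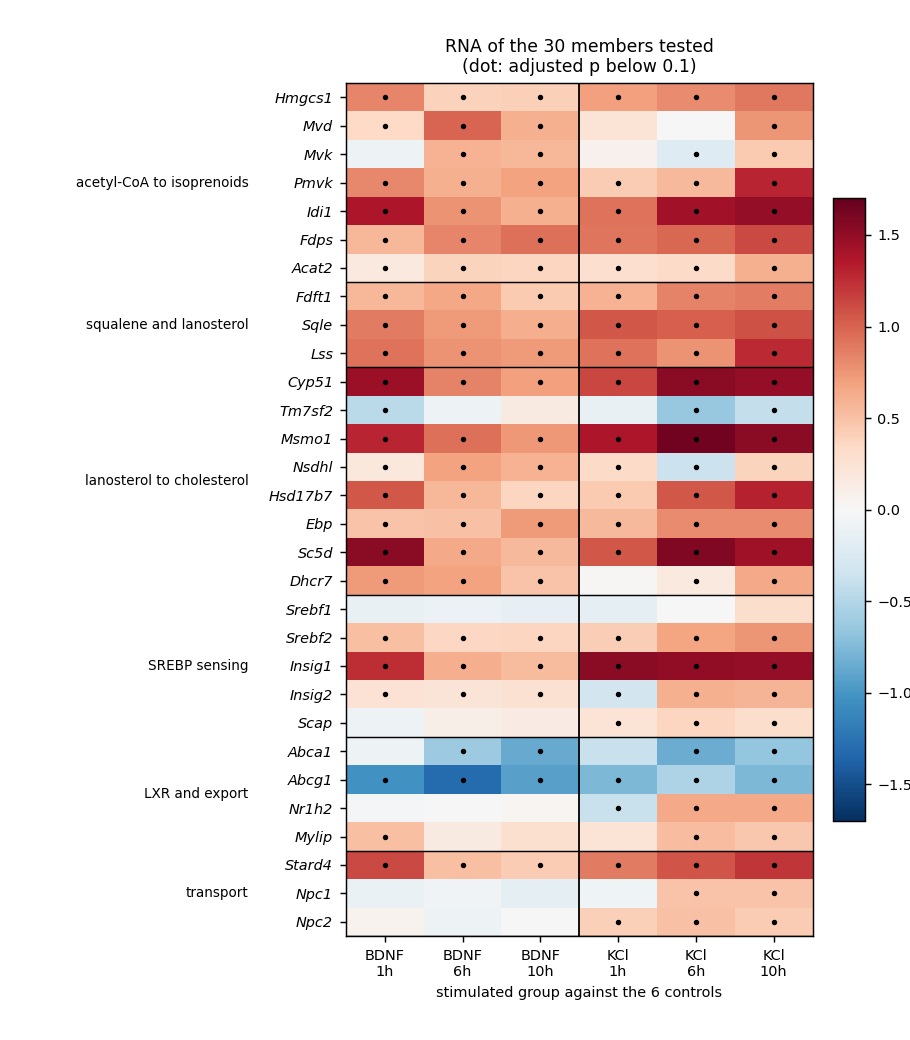
Log2 fold change of RNA for the 30 members tested (rows, grouped by role) in the 6 stimulated groups against the 6 controls (columns); red is higher, blue is lower, and a dot marks an adjusted p below 0.1. Most enzyme rows are red in all 6 columns, Abca1 and Abcg1 are blue, and Srebf1 carries no dot.

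Of the 18 synthesis enzymes, 13 rose in all 6 comparisons: Hmgcs1, Acat2, Pmvk, Idi1, Fdps, Fdft1, Sqle, Lss, Cyp51, Msmo1, Hsd17b7, Ebp and Sc5d. Srebf2, Insig1 and Stard4 did so as well, which makes 16 members in all. Abcg1 was the 1 member that fell in all 6, and Srebf1 passed the test in none. The share of all genes called in the same direction in all 6 was not counted. In each single comparison 21.1% to 33.4% of all genes rose and 19% to 33.1% fell. Mvk, Nsdhl, Insig2 and Nr1h2 rose in some comparisons and fell in others. Both stimulated samples lay above all 6 controls for 19, 22 and 23 members with BDNF at 1, 6 and 10 h, beside 24.6%, 25.8% and 23.4% of all genes.

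Several astrocyte and proliferation markers fell at the later times in the same samples. Of 6 astrocyte markers, 1 rose and 0 fell at 1 h with either stimulus, and 5 fell at 6 h with both, 3 at 10 h with BDNF and 5 at 10 h with KCl. Their summed level was 11036 to 11662 with BDNF at 6 h and 9305 to 11356 with KCl at 6 h, against 11752 to 16163 in controls. Of 4 proliferation markers, 3 and 2 fell at 6 h with BDNF and KCl, and 3 and 4 at 10 h. Of 6 markers of radial glia and progenitors, 0 rose and 1 fell at 6 and at 10 h with BDNF, 1 rose and 2 fell at 6 h with KCl, and 0 rose and 1 fell at 10 h. Of 5 general neuron markers, 1 rose and 3 fell at 6 h with BDNF and 0 rose and 3 fell at 10 h (median log2 fold change -0.19 and -0.23), while with KCl 2 rose and 2 fell at either time. Of 4 excitatory neuron markers, 3 and 2 rose with BDNF at 6 and 10 h, 4 and 2 rose with KCl, and 0 fell. Of 4 inhibitory neuron markers, 3 rose and 0 fell with BDNF at either time, and 3 rose and 1 fell with KCl. For scale, 6 h of BDNF lowered 21.1% of the whole transcriptome and raised 22.1%, while KCl lowered 33.1% and raised 33.4%. After 10 h, BDNF had lowered 19.5% and raised 21.1%, while KCl had lowered 28.2% and raised 29%. Whether any marker list went beyond these shares was not tested. In bulk samples, fewer cells of a type and less RNA per cell cannot be told apart, and the part of these markers in the results on cholesterol genes was not tested.

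In the precursor part, Hmgcs1 lies at chr13:119690379-119708260 on the plus strand. Its RNA was between 11327 and 13086 (median 12058) normalised counts in controls. At 1 h of BDNF it was 21622 and 21394, at 6 h 16360.5 and 15441, at 10 h 16084 and 16109. With KCl it was 21233 and 18139 (1 h), 21719 and 20551 (6 h) and 22419 and 22876 (10 h). All 12 stimulated samples lay above all controls, and the BDNF samples of 6 and 10 h were lower than every other stimulated sample. The log2 fold change (± SE) was 0.83 ± 0.06 with BDNF at 1 h (adjusted p = 7.36e-10), 0.39 ± 0.06 at 6 h and 0.90 ± 0.06 with KCl at 10 h (adjusted p = 1.69e-10).

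Idi1, which interconverts the basic isoprenoid units, had between 960.2 and 1087 (median 1023) normalised counts in controls. BDNF samples held 2743 and 2574 (1 h), 1864 and 1639 (6 h) and 1582 and 1542 (10 h). KCl samples held 2357 and 1589 (1 h), 2729 and 2818 (6 h) and 2611 and 3207 (10 h). No stimulated sample overlapped the controls, and the pair of KCl samples at 1 h was the widest apart. The fold change was largest at 1 h with BDNF (2.59-fold, log2 1.37 ± 0.10, adjusted p = 2.63e-09) and at 10 h with KCl (2.82-fold, log2 1.50 ± 0.10, adjusted p = 6.32e-10).

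Fdps, which builds farnesyl pyrophosphate, the branch point to sterols and to protein prenylation, had between 593 and 854 (median 695) normalised counts in controls. Values with BDNF were 1039 and 1044 (1 h), 1279 and 1214 (6 h) and 1343 and 1324 (10 h). KCl gave 1373 and 1264 (1 h), 1416 and 1348 (6 h) and 1594 and 1449.6 (10 h). All stimulated samples were above the controls, and the log2 fold change ranged from 0.57 ± 0.09 (BDNF, 1 h) to 1.12 ± 0.09 (KCl, 10 h; adjusted p = 1.83e-09). The gene shares 1124 bp of exon with Gm43738 on the same strand, and the program that counted reads is not given in the sources used here, so its counts are uncertain to that extent.

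Mvd, the decarboxylase that ends the mevalonate steps, followed a different course. Controls held between 336 and 518 (median 402) normalised counts. With BDNF the samples had 496 and 539.6 (1 h), 863 and 763 (6 h) and 666 and 578 (10 h). With KCl they had 495 and 465 (1 h), 446 and 381 (6 h) and 829 and 576 (10 h). Both samples exceeded all controls with BDNF at 6 and 10 h and with KCl at 10 h, and the remaining groups overlapped the controls. The log2 fold change was 0.99 ± 0.14 with BDNF at 6 h (adjusted p = 2.42e-05), 0.01 ± 0.14 with KCl at 6 h (adjusted p = 0.951) and 0.75 ± 0.14 with KCl at 10 h (0.49 without sample A of that group). Its rise with BDNF at 1 h (0.34, adjusted p = 0.0728) was lost without either BDNF sample, with controls of the same time and in edgeR.

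The other precursor enzymes were Acat2, Mvk and Pmvk. Pmvk, the second mevalonate kinase, rose in all 6 comparisons, from log2 0.43 (KCl, 1 h) to 1.29 (KCl, 10 h), though its calls with KCl at 1 and 6 h were lost without sample A of each group. Mvk, the first of those kinases, rose by 0.59 and 0.56 with BDNF at 6 and 10 h and by 0.45 with KCl at 10 h (0.28 without sample A of that group). With KCl at 6 h it was lower (log2 -0.22 ± 0.09, adjusted p = 0.053). This call was lost without sample B of that group (log2 -0.16) and with controls of the same time. Acat2, a cytosolic thiolase, had some of the smallest rises among the enzymes that rose throughout, from 0.16 to 0.61. Its call with KCl at 1 h was lost without sample A of that group. Its call with BDNF at 1 h (log2 0.16, limma, adjusted p = 0.0855) was lost under most alternatives. These were leaving out either BDNF sample or any of several single controls, controls of the same time, TMM scaling, no filter, and DESeq2. Mouse Acat3 is a close relative of Acat2, so reads of the pair may not be fully separable.

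The 3 enzymes of the squalene part rose in all 6 comparisons. Fdft1, squalene synthase, had log2 fold changes of 0.57, 0.66 and 0.45 with BDNF and 0.59, 0.84 and 0.87 with KCl. Sqle, the monooxygenase that puts an epoxide on squalene, had 0.88, 0.72 and 0.62 with BDNF and 1.05, 1.01 and 1.08 with KCl. Lss, lanosterol synthase, had 0.92, 0.77 and 0.72 with BDNF and 0.92, 0.76 and 1.27 with KCl. Fdft1 shares 774 bp of exon with Ctsb on the opposite strand, and whether counting used strand is not given in the sources used here.

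In the last part of the pathway, Cyp51 removes a methyl group from lanosterol. The gene lies at chr5:4081145-4104746 on the minus strand. Controls held between 3399 and 3796 (median 3664) normalised counts. Samples with BDNF held 9838 and 10026 (1 h), 6465 and 6572 (6 h) and 5785 and 5992 (10 h). Those with KCl held 9069.5 and 7089 (1 h), 9841 and 11322 (6 h) and 10096 and 10425 (10 h). All stimulated samples were clear of the controls, and with BDNF the 1 h samples were highest, whereas with KCl the late samples were. The log2 fold changes at 1, 6 and 10 h were 1.45 ± 0.07, 0.84 ± 0.07 and 0.70 ± 0.07 with BDNF (adjusted p = 6.60e-13, 9.55e-09 and 2.48e-07) and 1.14 ± 0.07, 1.54 ± 0.07 and 1.50 ± 0.07 with KCl.

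Sc5d, the desaturase near the end of the pathway, was the member with the largest rise at 1 h with BDNF. It was between 925 and 1039 (median 965) normalised counts in controls. After BDNF it was 2771 and 2861 (1 h), 1527 and 1525 (6 h) and 1429 and 1437 (10 h). After KCl it was 2282 and 1795 (1 h), 2745 and 3113 (6 h) and 2489.8 and 2834 (10 h). No stimulated sample reached down to the controls. The rise was 2.88-fold with BDNF at 1 h (log2 1.53 ± 0.08, adjusted p = 8.21e-13) and 2.99-fold with KCl at 6 h (log2 1.58 ± 0.08, adjusted p = 4.08e-13).

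Msmo1, the methylsterol oxidase, showed the largest rise of the list with KCl at 6 and 10 h. Its controls were between 1944 and 2226 (median 2071) normalised counts. BDNF samples had 5228 and 4905 (1 h), 3879.8 and 4093 (6 h) and 3359 and 3569 (10 h). KCl samples had 6031 and 4817 (1 h), 5624 and 7429.7 (6 h) and 5714 and 6269 (10 h). Every stimulated sample was above every control, and the pair with KCl at 6 h was the widest apart. The log2 fold change was 1.29 ± 0.09 with BDNF at 1 h (adjusted p = 3.15e-10) and 1.64 ± 0.09 with KCl at 6 h (adjusted p = 4.22e-12).

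**Figure D2:**
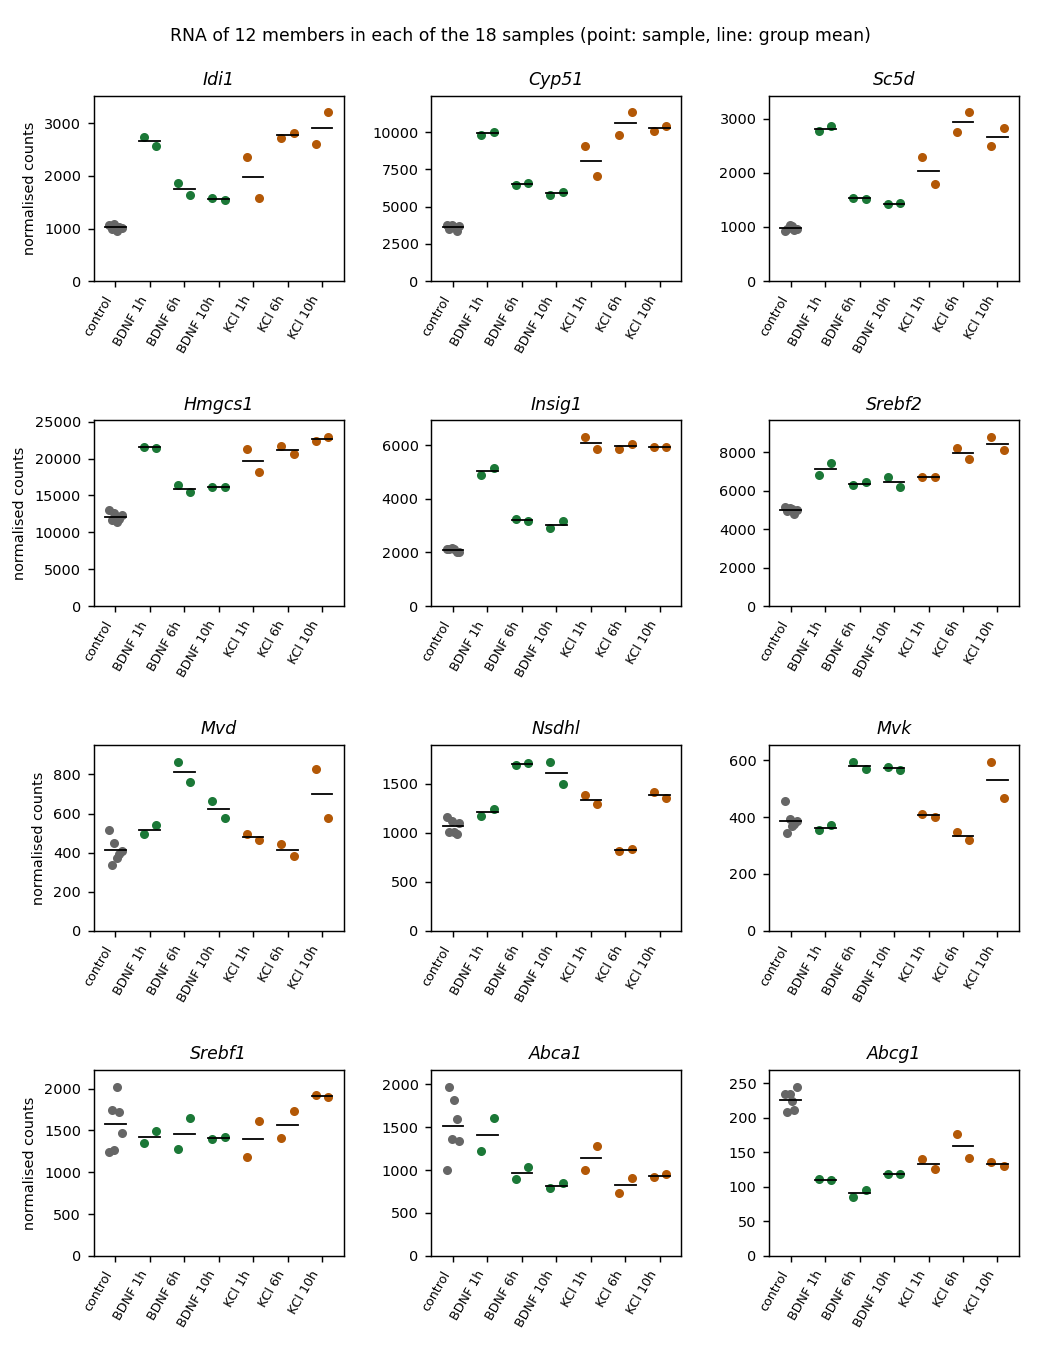
Normalised RNA counts (y axis, from 0) of 12 members in each of the 18 samples, by group (x axis); grey points are controls, green BDNF, orange KCl, and the line is the group mean. Idi1, Cyp51 and Sc5d are highest at 1 h with BDNF and late with KCl, Nsdhl at 6 h with KCl (818 and 839) lies below all controls, and the 2 samples of Abcg1 lie below the controls in all 6 stimulated groups.

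Among the other late enzymes, Hsd17b7, a ketosteroid reductase of the pathway, rose by 1.05, 0.57 and 0.37 with BDNF and by 0.44, 1.05 and 1.31 with KCl. Ebp, the sterol isomerase, rose by 0.49 to 0.73 with BDNF and 0.55 to 0.81 with KCl, its calls at 1 h being lost without sample A of either stimulus. Dhcr7, which makes the last reduction to cholesterol, rose with BDNF at all times (0.72, 0.68 and 0.49). With KCl it was 0.02 at 1 h (adjusted p = 0.885), 0.17 at 6 h and 0.64 at 10 h. The call at 6 h (adjusted p = 0.0951) was lost in edgeR and DESeq2 and without sample B. It was also lost with TMM scaling, no filter, controls of the same time, a fit of that group and the controls only, and without any of several single controls.

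Nsdhl, the sterol dehydrogenase that acts beside Msmo1, had between 988 and 1166 (median 1059) normalised counts in controls. With BDNF it was 1174 and 1244 (1 h), 1696 and 1711 (6 h) and 1722 and 1501 (10 h). With KCl it was 1384 and 1294 (1 h), 818 and 839 (6 h) and 1422 and 1353 (10 h). Both stimulated samples exceeded the controls except with KCl at 6 h, where both were below them. With BDNF at 1 h the lower sample (1173.9) was close to the highest control (1165.7). That call (log2 0.18, adjusted p = 0.0543) was lost without either BDNF sample and with controls of the same time. The log2 fold change was 0.68 ± 0.07 with BDNF at 6 h (adjusted p = 1.69e-07) and -0.36 ± 0.07 with KCl at 6 h (adjusted p = 1.62e-04). Tm7sf2, a sterol reductase, rose in none of the 6 comparisons: it fell by 0.46 on the log2 scale with BDNF at 1 h and by 0.65 and 0.40 with KCl at 6 and 10 h. The first of these calls was lost without sample A (adjusted p = 0.103) and the last without sample B of its group (log2 -0.10, adjusted p = 0.586), with -0.69 without sample A. Tm7sf2 shares 532 bp of exon with Vps51 on the same strand, so its counts are uncertain.

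Of the SREBP genes, Srebf2 rose and Srebf1 did not pass the test. Srebf2 held between 4780.0 and 5160.1 (median 5018) normalised counts in controls. BDNF gave 6822 and 7444 (1 h), 6303 and 6420.0 (6 h) and 6676 and 6188 (10 h). KCl gave 6726 and 6694 (1 h), 8217 and 7660.1 (6 h) and 8764 and 8082 (10 h). All 12 stimulated samples were above all 6 controls. The log2 fold change went from 0.35 ± 0.06 (BDNF, 6 h) to 0.75 ± 0.06 (KCl, 10 h; adjusted p = 4.60e-10).

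Srebf1 was between 1238 and 2019 (median 1596) normalised counts in controls, a wide spread. With BDNF it was 1349 and 1498 (1 h), 1282 and 1643 (6 h) and 1396 and 1424 (10 h). With KCl it was 1187 and 1614 (1 h), 1409 and 1729.5 (6 h) and 1919 and 1894 (10 h). Every stimulated group overlapped the controls. Log2 fold changes lay between -0.17 and 0.30, with SE of 0.18 and adjusted p of 0.191 or more. Without sample B of the 6 h controls, Srebf1 passed the test with KCl at 10 h (log2 0.37, adjusted p = 0.0585).

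Insig1, which retains SREBP and is itself an SREBP target, lies at chr5:28071363-28078662 on the plus strand. Controls were between 2001 and 2177 (median 2120.5) normalised counts. BDNF samples were 4901 and 5173 (1 h), 3256 and 3178 (6 h) and 2923 and 3163 (10 h). KCl samples were 6301 and 5853 (1 h), 5857 and 6062 (6 h) and 5956 and 5931 (10 h). Controls and stimulated samples did not overlap, and neither later KCl group differed from the one before (adjusted p = 0.762 and 0.981). BDNF raised it by 1.26 ± 0.06, 0.62 ± 0.06 and 0.54 ± 0.06 on the log2 scale, and KCl by 1.54 ± 0.06, 1.51 ± 0.06 and 1.50 ± 0.06 (adjusted p = 1.99e-07 for the smallest).

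Insig2, the second retention protein, changed less: it rose by 0.24, 0.22 and 0.26 with BDNF, while with KCl it fell at 1 h (-0.31, adjusted p = 0.00317) and rose by 0.60 and 0.58 at 6 and 10 h. Its calls with BDNF at 1 and 6 h were lost without either sample of the group, and at 10 h without sample B. Those at 1 and 6 h were also lost with controls of the same time. Scap, the escort, rose with KCl at all times (0.23, 0.36 and 0.30), the call at 1 h being lost without sample B and the value at 10 h being 0.19 without sample A. With BDNF its log2 fold changes were -0.09, 0.10 and 0.14 (adjusted p = 0.368, 0.272 and 0.143).

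The export pumps went the other way. Abcg1, which passes sterols to lipoproteins, held between 208 and 245 (median 229) normalised counts in controls. After BDNF it held 111 and 109.9 (1 h), 85.6 and 95.2 (6 h) and 119 and 119 (10 h). After KCl it held 141 and 125 (1 h), 176 and 141 (6 h) and 136 and 131 (10 h). All 12 stimulated samples were below all 6 controls. The log2 fold change was -1.03 ± 0.11, -1.31 ± 0.11 and -0.92 ± 0.11 with BDNF (adjusted p = 1.60e-07, 4.52e-09 and 1.36e-06) and -0.76 ± 0.11, -0.52 ± 0.11 and -0.76 ± 0.11 with KCl.

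Abca1, which loads cholesterol on apolipoproteins, varied widely in controls, between 1003 and 1968 (median 1479) normalised counts. BDNF samples had 1218 and 1606 (1 h), 890.0 and 1034 (6 h) and 788 and 846 (10 h). KCl samples had 1003 and 1279 (1 h), 734 and 909.9 (6 h) and 922 and 951 (10 h). Both samples were below all controls with BDNF at 10 h and with KCl at 6 and 10 h, and the lowest control, the deepest library, stood at the edge of the stimulated values. Abca1 fell by 0.62 and 0.86 on the log2 scale with BDNF at 6 and 10 h (adjusted p = 0.0406 and 0.00974) and by 0.85 and 0.66 with KCl (adjusted p = 0.00429 and 0.0231). The call with BDNF at 6 h was lost without either BDNF sample and that with KCl at 10 h without sample A, while without the deepest control Abca1 also passed the test with KCl at 1 h (log2 -0.50, adjusted p = 0.0191). Of 6 astrocyte markers, 5 fell at 6 h with each stimulus in these samples, when 21.1% and 33.1% of all genes fell. A link of these markers to Abca1 was not tested.

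Mylip, another LXR target, which marks lipoprotein receptors for degradation, held between 72.0 and 94.4 (median 87.6) normalised counts in controls. With BDNF it had 126 and 115 (1 h), 98.2 and 88.7 (6 h) and 101 and 103 (10 h). With KCl it had 109.9 and 88.7 (1 h), 124 and 120.4 (6 h) and 114 and 119 (10 h). Both samples lay above all controls with BDNF at 1 and 10 h and with KCl at 6 and 10 h. It rose with BDNF at 1 h (0.51 ± 0.13, adjusted p = 0.00416) and with KCl at 6 h (0.53 ± 0.13) and 10 h (0.46 ± 0.13), so that the LXR targets on the list did not share a direction. Nr1h2 fell with KCl at 1 h (-0.38, adjusted p = 2.67e-04) and rose at 6 and 10 h (0.64 and 0.65). With BDNF it was -0.03, -0.01 and 0.03, with adjusted p of 0.77 or more. Nr1h3 had 4.6 to 11.8 normalised counts in controls and 4.3 to 12.7 in stimulated samples.

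Among transport genes, Stard4, a soluble sterol carrier, rose in all 6 comparisons: 1.12, 0.51 and 0.43 with BDNF and 0.88, 1.07 and 1.22 with KCl. Npc1 and Npc2, which together move cholesterol out of lysosomes, passed the test with KCl alone, and at 6 and 10 h both were lower with BDNF than with KCl in the direct comparison (Npc1 -0.55 and -0.63, Npc2 -0.59 and -0.42). Npc1 rose by 0.49 and 0.48 with KCl at 6 and 10 h, and Npc2 by 0.41, 0.50 and 0.43 at 1, 6 and 10 h. With BDNF the log2 fold changes of Npc1 were -0.11, -0.06 and -0.15, and those of Npc2 0.06, -0.09 and 0.01, with adjusted p of 0.139 or more.

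The direct comparison of the stimuli, which does not use the controls, showed where the members differed. At 1 h, 9 members were higher with BDNF and 5 with KCl, when 24.6% and 18.2% of all genes were (42.8% in either direction). At 6 h, 5 were higher with BDNF and 18 with KCl (all genes 29.6% and 27.8%, 57.3% together), and at 10 h, 2 and 18 (23.1% and 21.8%, 45% together). The median difference, BDNF minus KCl, was 0.02, -0.32 and -0.42 on the log2 scale.

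At 1 h, Dhcr7 (0.70 ± 0.10, adjusted p = 1.44e-05), Hsd17b7 (0.60 ± 0.09), Insig2 (0.55 ± 0.10) and Sc5d (0.48 ± 0.10) led the members that were higher with BDNF, followed by Idi1, Pmvk, Nr1h2, Cyp51 and Stard4. Higher with KCl at 1 h were Npc2 (-0.36 ± 0.08), Fdps (-0.34 ± 0.11), Scap (-0.32 ± 0.09), Insig1 (-0.27 ± 0.07) and Sqle (-0.17 ± 0.06). The 1 h differences of Idi1, Cyp51, Pmvk and Stard4 were lost without KCl sample B (adjusted p = 0.268, 0.308, 0.379 and 0.712), and that of Sc5d was 0.30 without it. Those of Fdps and Sqle were lost without KCl sample A (adjusted p = 0.133 and 0.128), and that of Sqle also without BDNF sample A (adjusted p = 0.131), while those of Pmvk and Stard4 were lost without either BDNF sample. Hmgcs1 differed by 0.13 ± 0.08 at 1 h and did not pass the test.

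At 6 h, the largest differences toward KCl were those of Sc5d (-0.94 ± 0.10), Insig1 (-0.89 ± 0.07, adjusted p = 8.69e-10), Abcg1 (-0.80 ± 0.13), Msmo1 (-0.70 ± 0.11) and Cyp51 (-0.70 ± 0.09). The 5 members higher with BDNF at 6 h were all enzymes: Nsdhl (1.04 ± 0.09, adjusted p = 3.69e-09), Mvd (0.98 ± 0.17), Mvk (0.80 ± 0.12), Tm7sf2 (0.57 ± 0.16) and Dhcr7 (0.51 ± 0.10). At 10 h, Tm7sf2 (0.55 ± 0.16) and Nsdhl (0.21 ± 0.09) remained higher with BDNF, each call being lost without sample B of KCl. Insig1 (-0.97 ± 0.07), Hsd17b7 (-0.94 ± 0.09), Idi1 (-0.89 ± 0.13) and Sc5d (-0.89 ± 0.10) differed most in the other direction at 10 h.

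**Figure D3:**
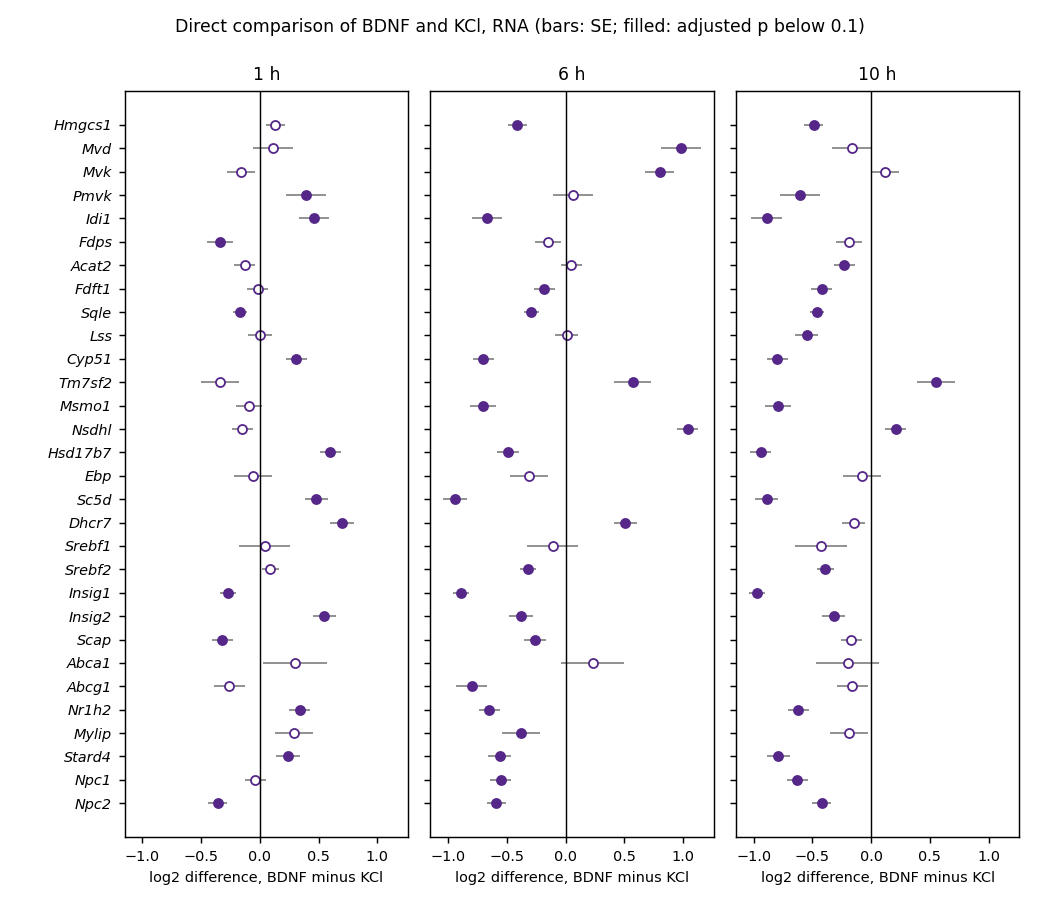
Log2 difference of RNA, BDNF minus KCl (x axis), for each of the 30 members (y axis) at 1, 6 and 10 h; bars are SE and filled points have an adjusted p below 0.1. At 1 h filled points lie on both sides of 0, while at 6 and 10 h 18 members lie to the left, with Nsdhl (1.04), Mvd (0.98) and Mvk (0.80) farthest to the right at 6 h.

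Over time, BDNF and KCl differed in course. From 1 to 6 h with BDNF, 11 members fell and 6 rose, when 17.7% and 15.8% of all genes did, 33.6% in either direction. Those that fell were Sc5d (-0.88 ± 0.10, adjusted p = 4.36e-07), Insig1 (-0.65 ± 0.07), Stard4 (-0.61 ± 0.10), Cyp51 (-0.61 ± 0.09), Idi1 (-0.60 ± 0.13), Hsd17b7 (-0.48 ± 0.09), Hmgcs1 (-0.44 ± 0.08), Mylip, Msmo1, Srebf2 and Sqle. Those that rose were Mvk (0.68 ± 0.12), Mvd (0.65 ± 0.17), Nsdhl (0.50 ± 0.09), Tm7sf2, Fdps and Acat2. With any BDNF sample of 1 or 6 h left out, 10 or 11 members passed. From 6 to 10 h with BDNF, 0 members passed in limma, edgeR or DESeq2, with 4 at an unadjusted p below 0.05 in each, beside 0.216% of all genes called by limma (0.074% higher).

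From 1 to 6 h with KCl, 11 members rose and 3 fell (all genes 30.9% and 28.7%, 59.6% together). Nr1h2 (1.01 ± 0.09) and Insig2 (0.91 ± 0.10) rose most, then Hsd17b7 (0.61 ± 0.09), Npc1 (0.56 ± 0.09), Sc5d (0.53 ± 0.10) and Idi1 (0.52 ± 0.13), while Nsdhl (-0.69 ± 0.09, adjusted p = 1.07e-06), Tm7sf2 (-0.52 ± 0.16) and Mvk (-0.29 ± 0.12) fell. The rise of Idi1 was 0.80 without KCl sample A of 1 h and 0.23 without sample B of 1 h, and the call of Mvk was lost without sample A of 1 h or sample B of 6 h. From 6 to 10 h with KCl, 8 members rose and 0 fell (all genes 12.9% and 9.66%), and all 8 were enzymes: Nsdhl (0.74 ± 0.09, adjusted p = 1.98e-05), Mvd (0.74 ± 0.17), Pmvk (0.73 ± 0.17), Mvk (0.66 ± 0.12), Lss (0.51 ± 0.10), Dhcr7 (0.47 ± 0.10), Acat2 (0.28 ± 0.09) and Hsd17b7 (0.26 ± 0.09). Without KCl sample B of 6 h 4 members passed, and without KCl sample A of 10 h 3 did.

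**Figure D4:**
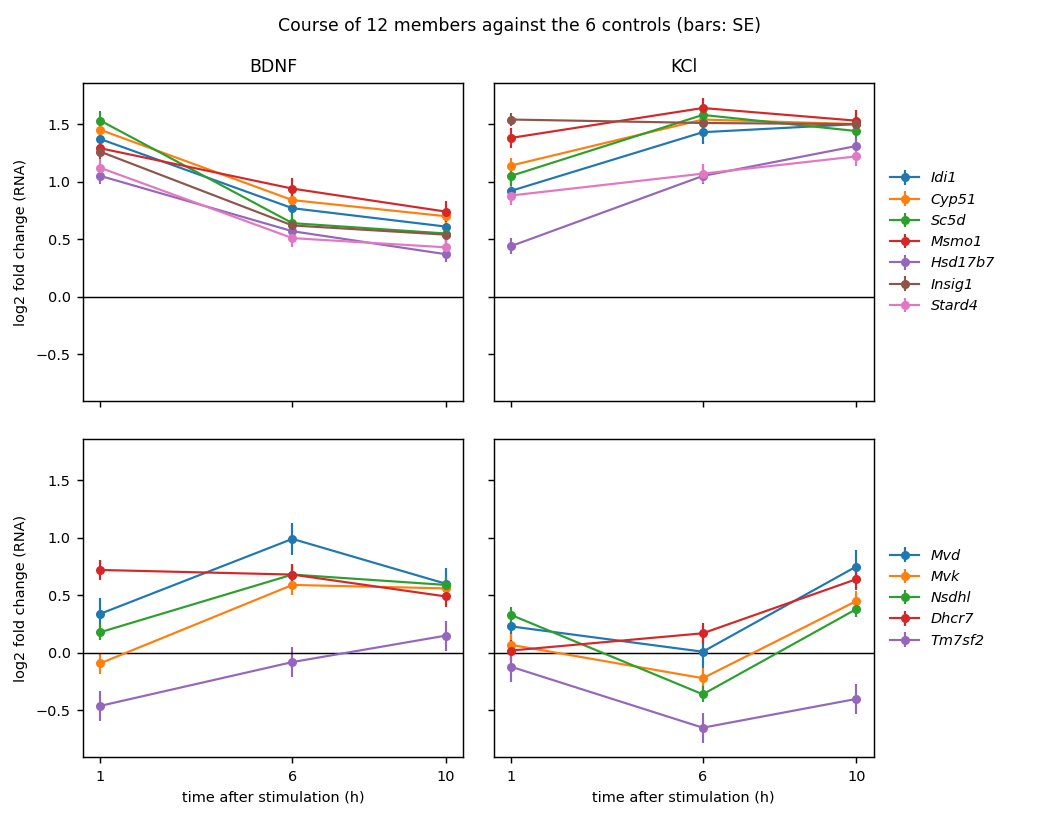
Log2 fold change of RNA against the 6 controls (y axis; bars are SE) over hours of stimulation (x axis) for 7 members (top) and for the 5 that were higher with BDNF than with KCl at 6 h (bottom). With BDNF the 7 start between 1.05 and 1.53 at 1 h and lie lower at 6 h, while with KCl Mvd, Mvk, Nsdhl and Tm7sf2 are lowest at 6 h.

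Other genes of lipid handling were counted from lists of related roles, to be read beside the shares of all genes that rose and fell given above. Of 10 fatty acid genes known as SREBP targets, 6, 4 and 3 rose and 0 fell with BDNF at 1, 6 and 10 h, and 7, 4 and 7 rose and 0, 2 and 1 fell with KCl. In the same order, 21.3%, 22.1% and 21.1% of all genes rose with BDNF and 26.5%, 33.4% and 29% with KCl. Acly, which makes cytosolic acetyl-CoA, rose in all 6 comparisons, from 0.27 to 0.60. Acss2, which makes the same product from acetate, rose with BDNF (0.43 at 6 h) and fell with KCl (-0.65 at 6 h).

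Of 8 genes of SREBP maturation and sterol-linked degradation, 4 rose and 3 fell with BDNF at 1 h, and 1 rose and 3 fell with KCl, when 21.3% and 19% of all genes did with BDNF and 26.5% and 28.2% with KCl. At 6 h 3 rose and 1 fell with BDNF, and at 10 h 3 rose and 0 fell, while with KCl 4 rose and 3 fell at either time. Among 6 genes of isoprenoid branches, 1 rose and 3 fell with KCl at 1 and at 6 h (all genes at 6 h 33.4% and 33.1%). Coq2, of ubiquinone synthesis, fell by 1.45 on the log2 scale with KCl at 6 h and was 0.00 with BDNF.

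Of 12 lipoprotein receptors and sterol carriers, 9 rose and 1 fell with KCl at 10 h (all genes 29% and 28.2%). With BDNF at 10 h 3 rose and 2 fell, near the 21.1% and 19.5% of all genes. At 1 h 5 rose and 1 fell with KCl, and 4 rose and 2 fell with BDNF. At 6 h 7 rose and 2 fell with KCl, and 4 rose and 3 fell with BDNF. Tmem97, which binds NPC1, rose in all 6 comparisons, by 0.92 at 6 h and 1.10 at 10 h with BDNF and KCl. Of 5 tested genes of oxysterol and ester handling, Nceh1, a hydrolase of cholesteryl esters, rose with BDNF at 6 h (0.97) and fell with KCl (-1.20), whereas Soat1, which makes such esters, fell with BDNF (-0.34) and rose with KCl (0.55). Ch25h and Cyp27a1, of the same list, were too low to be tested.

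Chromatin accessibility, measured by ATAC-seq, which tags open DNA, was present at the promoter of every member in the controls, and few of these peaks passed the test. The table held 37 promoter peaks, which overlap the stretch from 1000 bp upstream to 100 bp downstream of an annotated start, at least 1 for each of the 31 members, and 10 distal peaks within 20 kb nearest to a member, of which 46 peaks in all were tested. Reads were scaled by a LOESS fit over all peaks. The strongest promoter peaks in controls were those of Hmgcs1 (between 597 and 682 (median 618) scaled reads), Msmo1 (between 579 and 701 (median 625)) and Insig1 (between 394 and 538 (median 492)), and Abcg1 was among the weakest (between 26.5 and 53.2 (median 40.9)).

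With BDNF, 1 promoter peak gained accessibility at 1 h and 0 at 6 and 10 h, and 0 closed, under the LOESS scaling. Of 13729 tested promoter peaks of protein-coding genes, 3.99% gained and 2.64% closed at 1 h. Of all 56383 peaks, 11.2% gained and 5.2% closed. By 6 h of BDNF only 1.33% of such promoter peaks gained, though 7.33% of all peaks did, and 0.816% of these promoter peaks closed. The promoter shares after 10 h of BDNF came to 1.56% gained and 1.53% closed. By edgeR, of the 46 peaks 3 and 5 had an unadjusted p below 0.05 at 6 and 10 h, and DESeq2 called 0 at both times, with 1 and 3 at that unadjusted p, while limma called 0 and 1. With KCl, 4 promoter peaks gained at 1 h (all promoters 5.25%), 1 gained and 1 closed at 6 h (2.18% and 2.96%), and 3 gained at 10 h (1.65%). The median log2 fold change of the 37 promoter peaks was between -0.06 and 0.03 in all 6 comparisons.

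The direction of these calls depended on the scaling. With TMM in place of LOESS, 1 promoter peak gained and 3 closed with KCl at 1 h, 1 gained and 5 closed at 6 h, and 1 gained and 6 closed at 10 h. With BDNF, 1 gained and 1 closed at 1 h, 1 gained and 0 closed at 6 h, and 1 gained and 4 closed at 10 h. DESeq2 size factors gave 1 gained in each of the 6 comparisons, with 1, 1 and 5 closed with BDNF and 4, 7 and 8 closed with KCl. The median of the 37 promoter peaks with KCl was then -0.14, -0.17 and -0.22 at 1, 6 and 10 h, while the median of all peaks stayed between -0.06 and 0.04 under either scaling.

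The called promoter peaks with the smallest adjusted p were those of Npc2, Srebf2, Ebp and Stard4, and each call named below was lost on leaving out at least 1 stimulated sample. The Npc2 peak at chr12:84772751-84773460 had between 342 and 400.4 (median 370.2) scaled reads in controls and 479 and 473 with KCl at 1 h, a log2 fold change of 0.37 ± 0.09 (adjusted p = 0.00632). This call was lost without either KCl sample (adjusted p = 0.116 and 0.103) and with TMM (log2 0.16, adjusted p = 0.312). The Srebf2 peak at chr15:82146761-82147902 had between 250.1 and 344 (median 319.7) in controls, 363 and 419 with KCl and 237 and 280.1 with BDNF at 10 h, so that BDNF minus KCl was -0.59 ± 0.14 (adjusted p = 0.0115). The difference was lost without BDNF sample A (adjusted p = 0.208) or KCl sample B (adjusted p = 0.251), and was called with TMM and with DESeq2 size factors. Srebf2 RNA at 10 h was also lower with BDNF than with KCl (log2 -0.39).

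A weak peak just upstream of Ebp, chrX:8193502-8193670, had between 1.8 and 11 (median 6.1) scaled reads in controls, 19.4 and 16 with BDNF and 20.4 and 23.6 with KCl at 1 h, and gained with both (log2 1.47 ± 0.48 and 1.79 ± 0.47), also under both other scalings. The call with BDNF was lost without either BDNF sample, and that with KCl without sample B. With controls of the same time this peak was called with neither stimulus (edgeR, adjusted p = 0.203 and 0.153). The main Ebp peak, between 69.3 and 103 (median 96.3) in controls, was not called in any comparison. The Stard4 promoter peak had between 247 and 352 (median 341) in controls and 424 and 406 with KCl at 6 h (log2 0.36 ± 0.11, adjusted p = 0.0331), a call lost without either KCl sample and with TMM (log2 0.15). The Lss promoter peak had between 273 and 320.4 (median 286) in controls and 354 and 360.1 with KCl at 1 h, and BDNF minus KCl was -0.37 ± 0.12 (adjusted p = 0.0401), which was lost on leaving out any of the 4 samples and with TMM (adjusted p = 0.11). The Hmgcs1 peak, which spans the SRE printed above, closed with KCl at 6 h (-0.28 ± 0.09, adjusted p = 0.0566), where Hmgcs1 RNA rose by 0.80. It was called under both other scalings but not without either KCl sample (adjusted p = 0.16 and 0.388).

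The largest chromatin change at a member was distal. A peak of low counts at chr8:64726221-64726460, inside Msmo1 over an annotated exon, had between 1.2 and 9.4 (median 7.0) scaled reads in controls, 22.2 and 27.2 with BDNF at 1 h and 20.4 and 22.4 with KCl at 1 h. Both stimuli raised it above all controls, by 1.95 ± 0.45 (adjusted p = 5.92e-04) and 1.74 ± 0.47 (adjusted p = 0.0148). At 6 and 10 h it was not called. Of the 2 peaks called with BDNF at 1 h, 1 call was left without sample A and 0 without sample B. The Msmo1 call with KCl was lost without either KCl sample (adjusted p = 0.114 and 0.189), and with controls of the same time the peak was called with neither stimulus (adjusted p = 0.126 and 0.321).

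**Figure D5:**
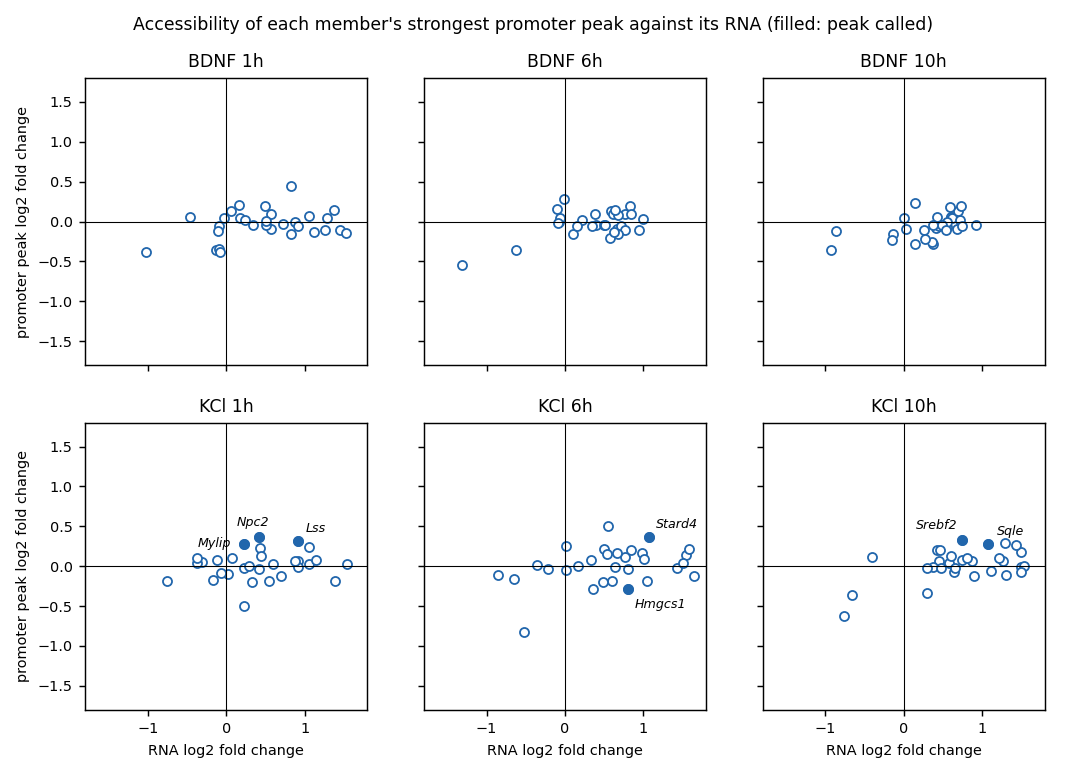
Log2 fold change of the strongest promoter peak of each of the 30 RNA-tested members (y axis, ATAC) against that of its RNA (x axis) in the 6 stimulated groups; both axes have the same scale and filled, named points are called peaks. RNA spreads up to 1.64 along x, whereas these promoter peaks stay between -0.83 and 0.51 along y.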

How the data were processed

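RNA-seq and ATAC-seq were measured in 18 samples each, and groups came from the sample labels. For RNA, the authors used TopHat2 and mm10 and deposited a signal that is never negative, gene counts divided by a DESeq2 size factor. Dividing by the smallest step of each column gave whole reads for 100% of values within 0.01. For ATAC, the authors used Bowtie2, MACS2 and DiffBind and deposited raw counts per peak. Their columns of fold changes and p-values were not used. Table columns name the group of a sample but not which of its 2 samples it is, so A and B are letters of the RNA columns and, for ATAC, the first and second column of a group.

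RNA was tested with limma 3.58.1 (trend, robust) on log2(value + 1) for genes with a mean of at least 10, and ATAC counts with edgeR 4.0.16 quasi-likelihood and LOESS offsets for peaks with a mean of at least 10 (56383 of 58177), both with 7 levels and Benjamini-Hochberg adjustment, two-sided. These log2 fold changes understate low genes. Gene starts and exons came from GENCODE M21 and promoters from RefSeq. Both fits were tested on simulated data. Alternatives were a pseudocount of 10, no filter, TMM, edgeR and DESeq2 1.42.0 on whole reads, a replicate block, controls of the same time, a smaller fit, an adjusted p below 0.01 and each replicate left out.

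The members and lists were chosen with earlier results of these data known. Values in every sample are given for Hmgcs1, Srebf1, Srebf2, Insig1, Abca1, Mylip and the 3 called members of largest absolute log2 fold change per comparison with controls; Nsdhl was added after its values were seen. Promoter peaks are named by smallest adjusted p, up to 6.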

Additional observations from a re-analysis of the deposited data

Results flagged for a closer look

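Insig2 was called in opposite directions at 1 h, higher with BDNF (0.24) and lower with KCl (-0.31), and the direct difference on the log2 scale was 0.55 (limma, adjusted p = 1.51e-04). Mvk was higher with BDNF (0.59) and lower with KCl (-0.22) at 6 h, with a difference of 0.80 (adjusted p = 6.17e-06). The call with KCl for Mvk was lost without KCl sample B (log2 -0.16), and that of Insig2 with BDNF without either BDNF sample. With controls of the same time both calls were lost as well (limma, adjusted p = 0.193 and 0.106). Mvk with KCl at 6 h (346.1 and 318.3) also overlapped the controls (lowest 345.5). Nsdhl at 6 h was 0.68 with BDNF and -0.36 with KCl, and differed by 1.04 (adjusted p = 3.69e-09).

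The Stard4 promoter peak had 1 control of 6 h far below the other 5, with a gap of 0.720 of the whole range of the 6 controls, above Dixon's critical value for 6 samples. Of 31 members in RNA and 37 promoter peaks screened in the 6 controls, this was the 1 group that passed that value, and chance gives about 1 in 20.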

How the results depend on the processing

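Of 148 calls of members against controls, 130 were kept under every alternative other than an adjusted p below 0.01, 18 were lost, all of them at least once on leaving out 1 replicate, and 0 reversed; 136 passed at 0.01. Of 57 calls between BDNF and KCl 43 were kept, and of 39 between times 23. From 1 to 6 h with BDNF the count of 17 became 10 at an adjusted p below 0.01. On leaving out 1 replicate, the counts ranged from 17 to 23, 21 to 23 and 22 to 24 with BDNF, 19 to 24, 26 to 28 and 28 to 30 with KCl, 11 to 14, 21 to 22 and 17 to 20 between stimuli, 10 to 11 from 1 to 6 h with BDNF, and 11 to 18 and 3 to 9 for the later KCl steps. A lone sample of an arm was then assumed to vary like the other groups.

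The labels do not say whether the letters A and B pair samples across groups. Same-letter deviations correlated from -0.315 to 0.418 over 36 pairs of groups (median 0.0649), which does not settle it. In the fit with the replicate block, BDNF gave 23, 23 and 23 calls, KCl gave 24, 28 and 30, and 1 call was lost, Mylip from 1 to 6 h with BDNF (adjusted p = 0.1004). It added 8 calls: Mvd and Abca1 with KCl at 1 h (adjusted p = 0.0778 and 0.0572), Srebf1 with KCl at 10 h (0.0639) and between stimuli at 10 h (log2 -0.43, 0.0381), Tm7sf2 and Ebp between stimuli at 1 and 6 h (0.0799 and 0.0873), and Abca1 from 1 to 6 h with BDNF and with KCl (0.0504 and 0.0535). No paired analysis was possible for ATAC because its table marks samples with neither a letter nor a number, and the order of the 2 columns of a group only names them.

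Counts of ATAC peaks, and their direction, depended more on scaling. With DESeq2 size factors they were 4, 3 and 6 with BDNF at 1, 6 and 10 h, 10 and 10 with KCl at 6 and 10 h, and 2 and 2 between stimuli at 1 and 6 h; TMM gave 4, 2, 5, 8, 8, 2 and 2. Of these, 2, 1, 5, 9 and 8 closed against controls with DESeq2 size factors and 2, 0, 4, 7 and 6 with TMM, where LOESS had 0, 0, 0, 2 and 0. With KCl at 1 h the split of 5 gained and 0 closed became 2 and 5 with DESeq2 size factors and 2 and 4 with TMM. With controls of the same time they were 1 with BDNF at 10 h and 1 and 1 with KCl at 1 and 10 h, of which the first 2 closed. With BDNF at 1 h that setting called 3 peaks, but neither the Ebp nor the Msmo1 peak was among them. Limma gave 1 with BDNF at 10 h and 3 and 5 with KCl at 1 and 6 h, and DESeq2 gave 1 with KCl at 10 h and 0 between stimuli at 6 h. At an adjusted p below 0.01, 1 peak passed with either stimulus at 1 h, 0 with KCl at 6 and 10 h and 0 between stimuli at each time. Leaving out 1 replicate gave 0 to 3, 0 to 1 and 0 to 1 with BDNF, 0 to 7, 0 to 4 and 0 to 3 with KCl, and 0 to 0, 0 to 0 and 0 to 2 between stimuli. The causes were not tested. With 2 samples a group and 1.24 to 6.24 M ATAC reads, changes of weak peaks were not detectable with confidence.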

Other observations

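Among 4 markers of inhibitory neurons, Gad1, Gad2 and Slc32a1 rose in all 3 comparisons with BDNF, by 0.87, 0.55 and 0.55 at 1 h, while Dlx1 was -0.10 and not called. With KCl at 6 h, Gad1 rose by 0.93 and Slc32a1 by 1.05, while Dlx1 fell (-0.43). Of 6 oligodendrocyte lineage genes, 1 rose with BDNF at each time, and 1, 3 and 2 fell at 1, 6 and 10 h. In the same order, 21.3%, 22.1% and 21.1% of all genes rose with BDNF and 19%, 21.1% and 19.5% fell. The lineage gene that rose was Mbp, a main protein of myelin (0.25, 1.24 and 1.10), while Sox10 and Pdgfra, which mark the lineage and its precursors, fell at 6 h (-0.88 and -0.57). Sox10 fell with KCl at 1 h (-2.41). Of the 6 lineage genes, 0, 2 and 1 rose and 3, 3 and 1 fell with KCl at 1, 6 and 10 h. All genes had shares of 26.5%, 33.4% and 29% that rose and 28.2%, 33.1% and 28.2% that fell. The summed level of the 6 was 4304 to 4863, 6924 to 7295 and 6639 to 7303 with KCl, against 5838 to 6334 in controls.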
